A study of Mus musculus with 6 samples.

Results

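The AMPA receptor genes described here are the 4 pore subunits Gria1, Gria2, Gria3 and Gria4, and 6 auxiliary proteins of the receptor, Cacng2, Cacng3, Cacng8, Cnih2, Cnih3 and Shisa9. They were taken by gene name from a table of 24935 genes, and all 10 were found in it. The table holds 1 normalized count per gene and library, which is a read count divided by 1 scaling factor for that library. RNA came from the left hippocampus of C57BL/6 mice at postnatal day 14 (P14), with 3 libraries from pups kept in room air and 3 from pups kept in 85% oxygen (hyperoxia) between P2 and P14. Dams stayed with their pups, pups of both sexes were used, and the sex of the animal behind each library is not given. No transgene or drug is described for either group. The numbers 1 to 3 used for the libraries are those of the table's columns and not those of the animals. Every direction below follows the group that the columns name. No deleted or added gene checks these names, and the fold changes published by the authors were not used as a check. The direction of every difference here therefore rests on the names alone and is not settled. If the names were exchanged, every sign would reverse while sizes and p-values would stay.

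AMPA receptors carry most of the fast excitatory current at synapses of the brain. Each receptor is an assembly of GluA subunits, which the Gria genes encode, around a channel that glutamate opens. GluA2, made from Gria2 RNA that is edited in the nucleus, keeps calcium out of the channel, whereas receptors without it let calcium pass. Auxiliary proteins sit beside the pore, bring the receptor to the synapse and change how fast it closes. The main families are the transmembrane AMPA receptor regulatory proteins (TARPs, the Cacng genes), the cornichons (the Cnih genes) and the CKAMP proteins (the Shisa genes). In pyramidal cells of the hippocampus, receptors built from GluA1 and GluA2 with the TARP γ-8 and a cornichon are the common form. The comparison asks which of these transcripts differed at P14 between hyperoxia-exposed and air-exposed pups.

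Each library had between 30384052 and 38746972 reads on genes, so counting error was small for these genes. The spread between libraries, which stand for separate animals, set the precision. In a principal component analysis of log2 values, the first component (52.7% of the variance) separated the groups. On the second (19.5%), hyperoxia library 2 lay at 38.7, away from hyperoxia libraries 1 and 3 at -5.09 and -22.6. Hyperoxia library 3 had a normalized count of 7454 for Ttr, a choroid plexus gene, against 167 to 887 in the other libraries. Values without these libraries are given beside the results that they moved. Defining markers of the hippocampus were present in every library, with the dentate gene Prox1 between 5181 and 8665. No batch is given for these libraries, so none was tested.

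By the group names of the columns, Gria1 and Cacng8 were lower and Gria4 was higher in hyperoxia than in air. The other 7 members did not pass the test. Differences are hyperoxia minus air on the scale of log2 of the normalized count plus 1, and a gene was called at a Benjamini-Hochberg adjusted p under 0.05 in limma across all genes tested. Of all 17778 genes tested, 30.5% were called, 14.9% as higher and 15.6% as lower. The count of 3 called members of 10 was therefore close to the background, and the finding lies in which members moved and by how much. The median difference of the 10 members was -0.16, against -0.01 over all genes tested. The groups did not overlap for 4 members, beside 46.1% of all genes tested. Taken by direction, 1 member was above air in every hyperoxia library (22.3% of all genes) and 3 were below (23.8%). In whole tissue, fewer cells of a type and less RNA per cell cannot be told apart.

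**Figure D1:**
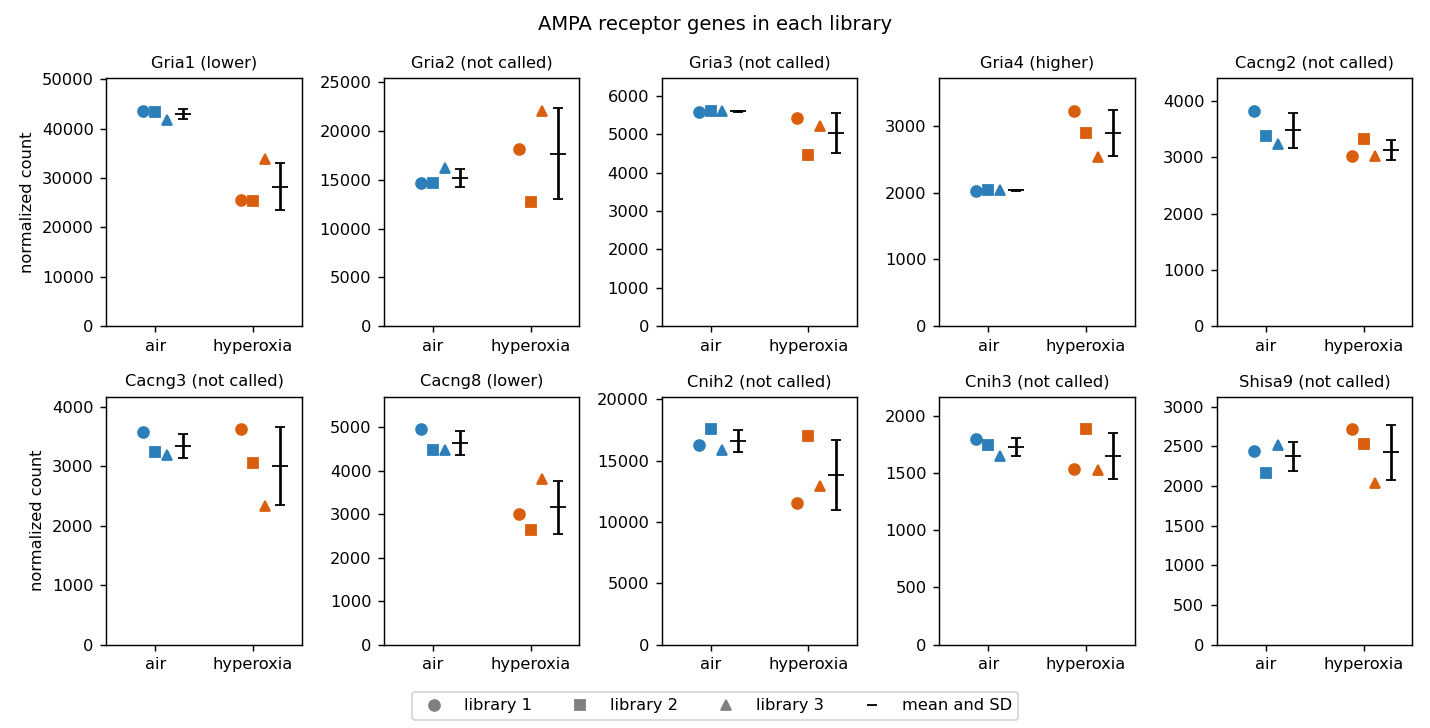
Normalized count (y axes, each from 0) of the 10 members in each air library (blue) and each hyperoxia library (orange), with the mean and SD of the 3 libraries of a group in black. The 3 hyperoxia libraries lay below all 3 air libraries for Gria1, Gria3 and Cacng8 and above them for Gria4.

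Gria1 encodes GluA1, the subunit whose insertion at synapses accompanies long-term potentiation. Air libraries 1, 2 and 3 held normalized counts of 43611, 43441 and 41791. The hyperoxia libraries, in the same order, held 25614, 25326 and 33829, and values below keep this order. Every hyperoxia library lay below every air library, with library 3 the nearest to air. The mean fell from 42948 ± 1006 to 28256 ± 4828 (SD, n = 3 each), 0.658 of the air level. The log2 difference was -0.62 (95% confidence interval -0.87 to -0.36), with an adjusted p of 0.0041 in limma. The fall was called under all 16 alternatives, and the difference ranged from -0.75 (without hyperoxia library 3) to -0.54 (without hyperoxia library 2) when any 1 library was left out. It was smallest, at -0.37, when the libraries were forced to a common distribution by quantile normalization. Gria1 is on chromosome 11 at 57011387 to 57330244 (plus strand, GENCODE M21 on GRCm38).

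Gria2 moved the other way in part of the hyperoxia libraries and gave no call. The normalized count was 14643, 14698 and 16197 in air and 18189, 12757 and 22079 in hyperoxia. Hyperoxia libraries 1 and 3 were above every air library, and hyperoxia library 2 was below every one. The log2 difference of 0.19 had an interval from -0.19 to 0.56, so these libraries allow both a fall and a rise (adjusted p = 0.42, limma). Without hyperoxia library 2 the difference was 0.40 and was called higher (adjusted p = 0.0035), in a fit that called 43.7% of all genes, 21.6% as higher and 22.1% as lower. Without hyperoxia library 3 it was 0.0067. Gria2 transcripts are poor in G and C (36.8%), and when the trend of a library's values with length and GC content of transcripts was taken out, the difference was -0.25 and was called lower (adjusted p = 0.021). Under this correction 34.9% of all genes were called, 15.9% as higher and 19% as lower. No direction is therefore given for Gria2. The gene is on chromosome 3 at 80681450 to 80802835, on the minus strand.

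Gria3, an X-linked gene whose product joins GluA2 in pyramidal cells, was slightly lower. Its normalized count was 5569.5, 5610.0 and 5598 in air and 5432, 4445 and 5202 in hyperoxia. All of hyperoxia lay under all of air, by a distance that was small beside the spread of the hyperoxia libraries. The log2 difference was -0.16 (95% confidence interval -0.35 to 0.03, adjusted p = 0.18, limma). With the length and GC correction it was -0.37 and was called (adjusted p = 0.00081), and without hyperoxia library 2 it was -0.07 and was not. Gria3 transcripts also have a low GC content (39.8%). The gene lies on chromosome X at 41400854 to 41678601, on the plus strand.

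Gria4 encodes GluA4, which gives fast receptors and in the hippocampus is best known from interneurons and from the first postnatal days. Its normalized count was 2022, 2043 and 2041 in the air libraries, a narrow range. In hyperoxia it was 3234, 2903 and 2541, so each library was above all of air and library 3 was again the nearest to it. The mean rose from 2035 ± 11.7 to 2893 ± 346 (SD, n = 3 each), a ratio of 1.42. The log2 difference was 0.50 (95% confidence interval 0.30 to 0.70, adjusted p = 0.0038, limma). The rise was called under all 16 alternatives, with differences from 0.42 (without hyperoxia library 1) to 0.59 (without hyperoxia library 3) when any 1 library was left out and of 0.34 under the length and GC correction. Gria4 is on chromosome 9 at 4417896 to 4796234, on the minus strand.

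RefSeq promoter windows on GRCm38.p6, each 250 bases before and 50 bases after a gene start, were given for 7 of the 10 members. The window for Gria4 is shown because Gria4 was the pore subunit that rose, and that for Gria2 because its direction was not settled. For both genes the RefSeq start is also the GENCODE gene start on the strand of the gene, which held for 4 of the 7 members. Sequences run 5′ to 3′ on the strand of the gene, and capitals mark the CG dinucleotides.
Gria4, chr9:4796185-4796484, minus strand: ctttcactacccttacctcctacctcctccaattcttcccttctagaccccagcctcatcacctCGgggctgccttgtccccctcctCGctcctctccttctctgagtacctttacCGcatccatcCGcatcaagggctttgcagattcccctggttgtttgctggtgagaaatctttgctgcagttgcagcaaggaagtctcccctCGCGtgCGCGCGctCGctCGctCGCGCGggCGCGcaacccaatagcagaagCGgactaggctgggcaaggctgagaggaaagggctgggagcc
Gria2, chr3:80802786-80803085, minus strand: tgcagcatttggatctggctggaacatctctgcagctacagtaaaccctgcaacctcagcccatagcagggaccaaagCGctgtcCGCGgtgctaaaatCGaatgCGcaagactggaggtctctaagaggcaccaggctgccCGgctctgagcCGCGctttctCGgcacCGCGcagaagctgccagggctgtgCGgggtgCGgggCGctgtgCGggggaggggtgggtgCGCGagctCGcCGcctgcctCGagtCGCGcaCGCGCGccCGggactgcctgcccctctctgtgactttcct
The window of Gria4 has 17 CG dinucleotides and 59.7% G and C. That of Gria2 has 26 and 65.7%, beside medians of 7 and 52.7% over all 32851 mouse promoter windows. Both were searched on both strands for 5 motifs. The cyclic AMP response element (TGACGTCA) is in 1.79% of all promoter windows. The antioxidant response element core (TGACNNNGC) is in 12.4% of them. For the GC box the letters were GGGCGG, found in 35.7% of all windows. For the E-box they were CACGTG, which 7.15% of windows hold. For the TATA box, TATAAA was sought and is held by 13.6%. None of these motifs is in the window of Gria4 or Gria2, nor in those of Cacng2, Cacng3 and Cacng8. The RefSeq starts of Cacng2, Cacng3 and Cacng8 lie 748, 1252 and 3359 bases downstream of the GENCODE gene starts. Their windows therefore do not reach the GENCODE starts, and the sequence there was not searched. A GC box stands 3 times in the window of Cnih2 and 1 time in that of Cnih3, which also holds an E-box. Gria1, Gria3 and Shisa9 have no entry in the promoter table used.

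With Gria1 lower and Gria4 higher, the mean makeup of the pore transcripts differed between the groups. The shares below are computed from the same counts, so they are not a separate result. Levels of different genes can be set side by side only per length, so each normalized count was divided by the kilobases of exon of its gene, and a subunit's share is its part of the sum over the 4 Gria genes. Gria1 made up 79.8%, 79.6% and 78.2% of that sum in air and 65.5%, 70.8% and 70.4% in hyperoxia. It remained the most abundant pore transcript in every library. The mean share of Gria1 fell by 10.3 percentage points, from 79.2% ± 0.906 to 68.9% ± 2.95 (SD, n = 3 each).

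The shares of the other pore subunits were higher in hyperoxia. Gria2 had 10.9% ± 0.769 of the sum in air and 16.6% ± 2.38 in hyperoxia. Gria4 had 3.60% ± 0.0566 and 6.92% ± 1.61. Gria3 had 6.32% ± 0.087 and 7.59% ± 0.937, although its own normalized count was not higher. The difference of 1.27 percentage points for Gria3 became 0.803 without hyperoxia library 1. Groups did not overlap for any of these 4 shares, and each exact two-sided permutation test gave p = 0.1, the smallest that 3 against 3 libraries allow, so none can pass 0.05. In all, 9 shares were compared, those of 4 pore subunits, 4 TARPs and Cnih3, and the exact permutation p of 0.1 became 0.129 after adjustment over them. In plain values, without division by length, the shares of Gria3 overlapped (exact permutation p = 0.4) and the other 3 kept their order. The 4 shares are parts of 1 sum and so are not independent. The sum itself was 8973 ± 108 normalized counts per kilobase in air and 6781 ± 1048 in hyperoxia, lower in every hyperoxia library.

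**Figure D2:**
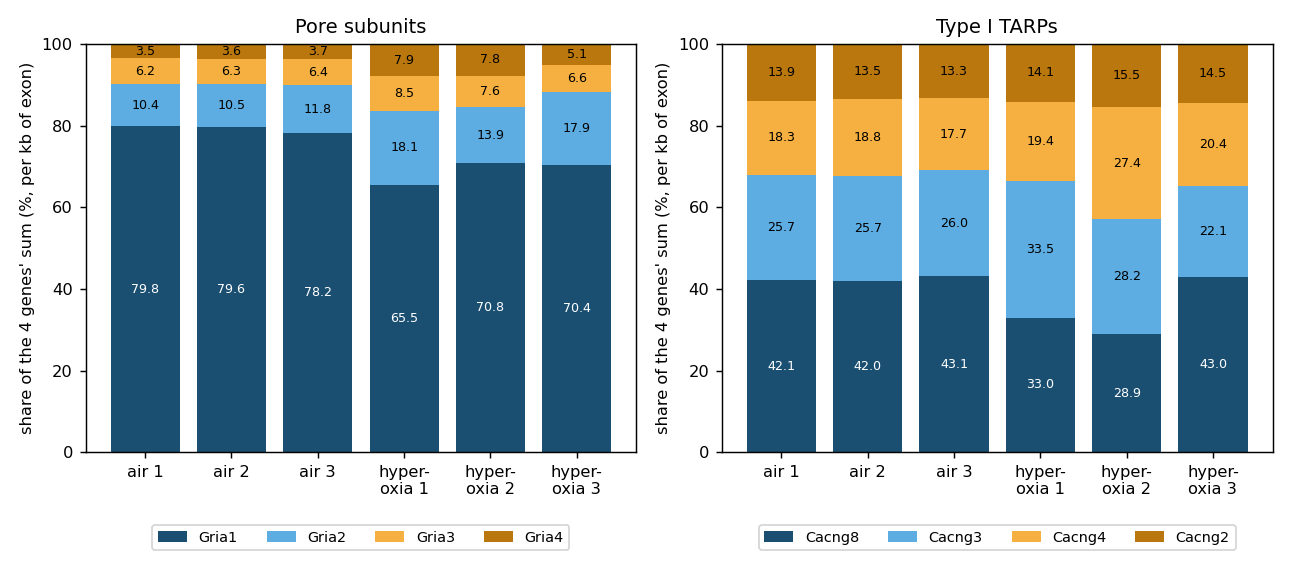
Share of each gene (y axis, %) in the sum of the normalized counts per kilobase of exon, for the 4 pore subunits (left) and the 4 type I TARPs (right), with 1 bar per library. Gria1 took 78.2% to 79.8% of the pore sum in air and 65.5% to 70.8% in hyperoxia, whereas the share of Cacng8 overlapped between the groups.

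Among the TARPs, Cacng8 was the member that moved. It encodes γ-8, the TARP most typical of the hippocampus, which holds extrasynaptic receptors in reserve and is needed for normal receptor numbers there. Its normalized count was 4951, 4467 and 4465 in air and 3008, 2638 and 3814 in hyperoxia. Hyperoxia was again below air without overlap, and library 3 was the nearest to air, as for Gria1. The mean fell from 4628 ± 280 to 3153 ± 601 (SD, n = 3 each), 0.681 of the air level. The log2 difference of -0.57 (95% confidence interval -0.84 to -0.29) had an adjusted p of 0.0079 in limma and was called under all 16 alternatives, from -0.71 (without hyperoxia library 3) to -0.45 (without hyperoxia library 2) when any 1 library was left out. Cacng8 is on chromosome 7 at 3390683 to 3415648, on the plus strand, and its transcripts are rich in G and C (65.0%).

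Cacng2 and Cacng3, both also type I TARPs, gave no call. Cacng2 encodes stargazin, the protein lost in the stargazer mouse. It ranged from 3231 to 3827 in air and from 3022 to 3329 in hyperoxia, with 1 hyperoxia library inside the air range. Its log2 difference was -0.15 (95% confidence interval -0.34 to 0.04, adjusted p = 0.20, limma). With the length and GC correction it was -0.24, with an adjusted p of 0.049, and without air library 1 it was -0.08. Cacng3, which encodes γ-3 of cortex and hippocampus, ranged from 3194 to 3576 in air and from 2325 to 3619 in hyperoxia, so the hyperoxia libraries lay on both sides of air. Its difference was -0.18 (95% confidence interval -0.49 to 0.14, adjusted p = 0.36, limma), and it moved to -0.0037 without hyperoxia library 3 and to -0.32 without hyperoxia library 1. The intervals of Cacng2 and Cacng3 end above that of Cacng8 but overlap it, and the differences between genes were not tested on this scale.

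As a share of the 4 type I TARPs per kilobase, Cacng8 had 42.1%, 42.0% and 43.1% in air and 33.0%, 28.9% and 43.0% in hyperoxia. Hyperoxia library 3 lay inside the air range, and the mean difference was -7.44 percentage points (exact permutation p = 0.3, two-sided). It was -4.40 without hyperoxia library 2 and -11.5 without hyperoxia library 3. Cacng4, which encodes γ-4 and belongs to the same type, took 18.3% ± 0.588 in air and 22.4% ± 4.38 in hyperoxia, with no overlap. The difference of 4.12 percentage points fell to 1.61 without hyperoxia library 2. The normalized count of Cacng4 itself overlapped (log2 difference 0.01). The sum of the 4 TARPs was 4657 ± 311 normalized counts per kilobase in air and 3856 ± 63.5 in hyperoxia.

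Cnih2, the main cornichon of hippocampal pyramidal cells, slows the closing of the receptor and helps it leave the endoplasmic reticulum. Its normalized count was 16295, 17561 and 15834 in air and 11515, 17037 and 12898 in hyperoxia. Hyperoxia libraries 1 and 3 were below all of air, and hyperoxia library 2 was within the air range. The log2 difference was -0.28 (95% confidence interval -0.57 to 0.01, adjusted p = 0.13, limma). Without hyperoxia library 2 it was -0.44 and was called lower (adjusted p = 0.00071), while the length and GC correction left -0.10. Cnih3, its close relative with a lower level, ranged from 1644 to 1794 in air and from 1528 to 1881 in hyperoxia, a difference of -0.07 (95% confidence interval -0.28 to 0.14, adjusted p = 0.59, limma). It was -0.17 without hyperoxia library 2 and -0.02 without hyperoxia library 3, with no call. Per kilobase, Cnih3 took 4.94% ± 0.247 of the cornichon sum in air and 5.67% ± 0.515 in hyperoxia, without overlap (exact permutation p = 0.1). The difference of 0.729 percentage points became 0.451 without hyperoxia library 1. The GENCODE annotation places 14 of the 1369 exon bases of Cnih2 opposite Yif1a, and whether reads were counted by strand is not stated.

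Shisa9 encodes CKAMP44, which slows recovery from desensitization and is plentiful in dentate granule cells. It ranged from 2168 to 2515 in air and from 2044 to 2717 in hyperoxia, so the air range lay within the hyperoxia range. The log2 difference was 0.03, with an interval from -0.22 to 0.27 (adjusted p = 0.88, limma). Its sign changed when air library 2, hyperoxia library 1 or hyperoxia library 2 was left out and under the length and GC correction, and no alternative gave a call.

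The order of levels per kilobase of exon changed little between the groups. In air, Cnih2 was the highest at 12099 normalized counts per kilobase, followed by Gria1 at 7107, Cacng8 at 1973, Cacng3 at 1202 and Gria2 at 976. Cacng2 at 631 and Cnih3 at 628 overlapped in air and so have no order between them. Gria3 at 567, Shisa9 at 453 and Gria4 at 323 followed without overlap. In hyperoxia Cnih2 and Gria1 were again first and second, at 10093 and 4676. The ranges of Cacng8, Gria2 and Cacng3 overlapped in hyperoxia, as did those of Gria3, Shisa9 and Gria4. Gria2 and Gria3 have many exon bases that not every transcript holds, and with the longest coding transcript as the length Gria2 came to rank 4 and Gria3 to rank 6 in air.

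**Figure D3:**
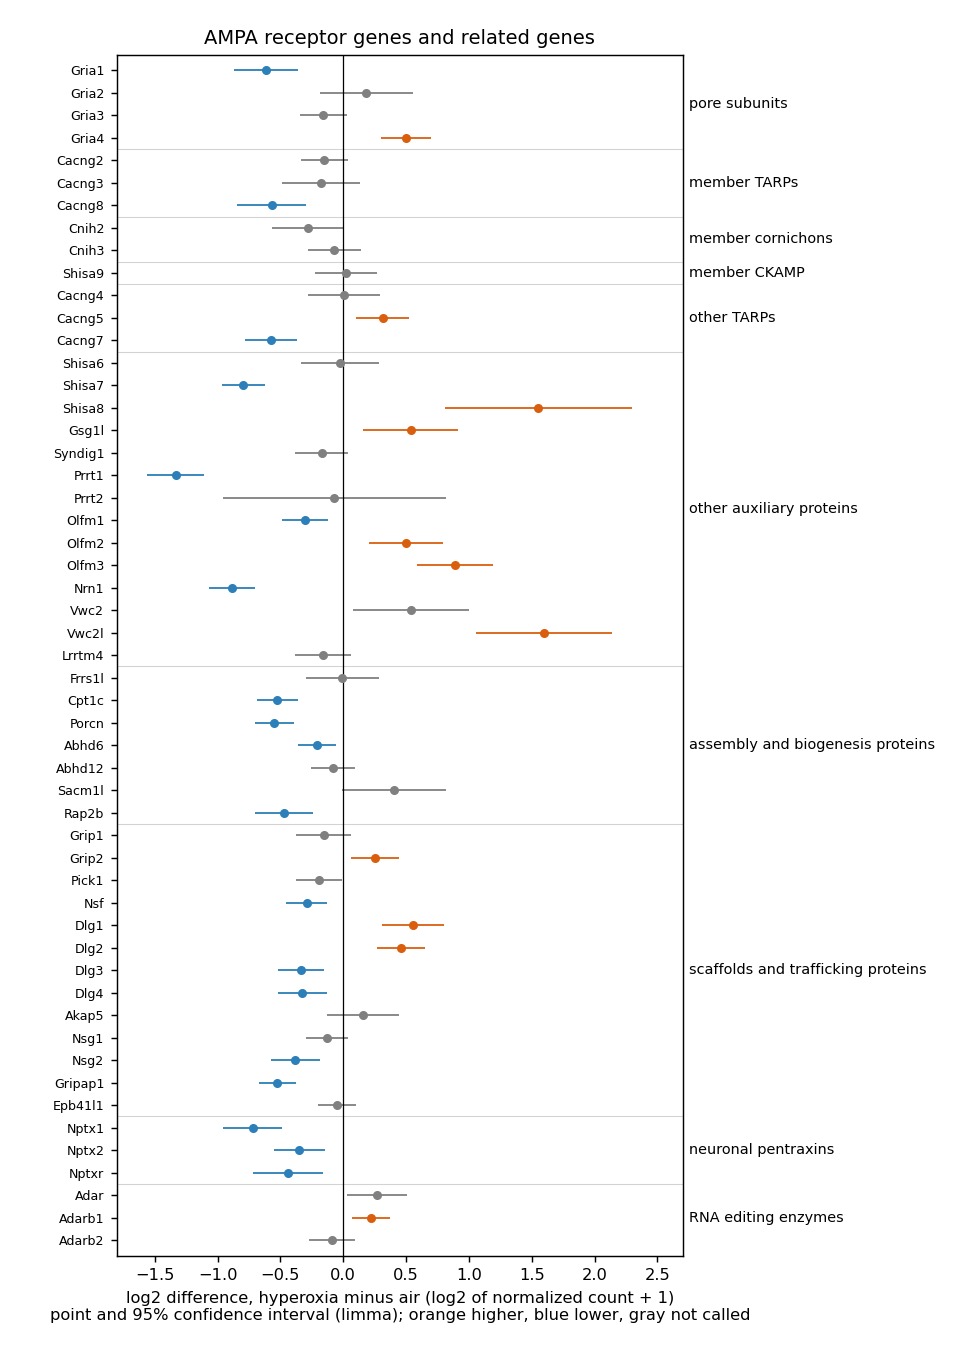
Log2 difference, hyperoxia minus air, of the 10 members and of 43 related genes in 6 lists (x axis, log2 of the normalized count plus 1), with the 95% confidence interval from limma. Orange genes were called higher, blue genes lower and gray genes were not called. The 3 neuronal pentraxins were all lower, whereas the other auxiliary proteins spread from -1.33 to 1.60.

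Related genes of the receptor were taken from 6 lists that hold 43 genes, all of which were tested. Of these, 10 were called higher and 17 lower, with a median difference of -0.13 (all genes tested -0.01). Over all genes tested, 14.9% were called higher and 15.6% lower, and the counts by list below stand beside these shares. Of the 3 other TARPs, Cacng7 fell and Cacng5 rose. Both encode type II TARPs, which act on receptors more weakly. Cacng7 had 9059, 7622 and 7935 in air and 5464, 6056 and 5016 in hyperoxia, a log2 difference of -0.57 (adjusted p = 0.0024, limma). Cacng5 had 638, 672 and 576 in air and 732, 761 and 850 in hyperoxia, a difference of 0.31 (adjusted p = 0.033, limma), and it kept its call under 10 of the 16 alternatives.

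Of 14 other auxiliary proteins of the receptor, 5 were called higher and 4 lower. Prrt1 (SynDIG4), which keeps a reserve of receptors outside synapses, had the largest fall of these lists, at -1.33. Its normalized count was 22161, 18653 and 19364 in air and 7440, 9091 and 7415 in hyperoxia, at 0.398 of the air level. Shisa7, a relative of Shisa9 that also binds GABA receptors, fell by 0.79 on the log2 scale. Nrn1 (neuritin) fell by 0.88, although 501 of its 2249 exon bases lie opposite Fars2. Olfm1 fell by 0.30.

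The other called auxiliary genes rose. Vwc2l rose by 1.60 from a low level, between 118 and 197 in air and between 387 and 688 in hyperoxia. Shisa8 (CKAMP39) had 56.5, 59.0 and 59.5 in air and 202, 277 and 91.7 in hyperoxia, a difference of 1.55. Olfm3 rose by 0.89, Gsg1l by 0.54 and Olfm2 by 0.50. Of the 16 alternatives, 11 called Gsg1l, 12 called Olfm2 and 12 called Olfm1, and all called the other 6 of these auxiliary genes. The CKAMP genes thus differed in direction, since Shisa7 was lower, Shisa8 higher, and Shisa6 and Shisa9 had differences of -0.02 and 0.03 without a call. Prrt2 shares 2918 of its 3159 exon bases with a gene on the same strand, and its count of 7.93 to 20.3 is uncertain for that reason.

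Proteins that assemble the receptor in the endoplasmic reticulum or limit its delivery gave 4 lower and 0 higher of 7 in limma, with a median of -0.21. At an unadjusted p under 0.05 the counts were the same in limma, and DESeq2 called 4 lower and 1 higher (Sacm1l). Cpt1c fell by 0.52, Porcn by 0.55, Rap2b by 0.47 and Abhd6 by 0.21. The call of Abhd6 held under 9 of the 16 alternatives and the other 3 under all. The values of Rap2b are uncertain, because 3702 of its 6793 exon bases lie opposite another gene. Frrs1l, needed for early assembly, had a difference of -0.01.

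Scaffolds and trafficking proteins gave 3 higher and 5 lower of 13. The membrane-associated guanylate kinases, which anchor TARPs and receptors at the synapse, were split. Dlg1 (SAP97), which binds GluA1, rose by 0.55 and Dlg2 (PSD-93) by 0.46. Dlg3 (SAP102) fell by 0.34 and Dlg4 (PSD-95) by 0.33. Dlg1 had 1900, 2122 and 2073 in air and 3560, 2682 and 2775 in hyperoxia, without overlap. Gripap1 (GRASP1), of recycling endosomes, fell by 0.53, Nsg2 by 0.38 and Nsf, which binds GluA2, by 0.29. Grip2 rose by 0.25 with an adjusted p of 0.0498 in limma and kept its call under 6 of 16 alternatives. Nsf and Dlg4 kept theirs under 11, Dlg3 and Nsg2 under 14, Dlg2 under 15, and Dlg1 and Gripap1 under all 16.

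All 3 neuronal pentraxins, extracellular proteins that gather AMPA receptors at synapses, were lower. Nptx1 had 16872, 17007 and 17805 in air and 9152, 10129 and 12305 in hyperoxia, a difference of -0.72 (adjusted p = 0.0016, limma). Nptxr differed by -0.44, although it shares 890 of its 5170 exon bases with Npcd on the same strand. Nptx2 differed by -0.35. Nptx1 was called under all 16 alternatives, Nptx2 under 11 and Nptxr under 10. For each of them all hyperoxia libraries were below all air libraries, which held for 23.8% of all genes tested. Of the RNA editing enzymes, Adarb1 (ADAR2), which edits Gria2 RNA, was called higher at 0.22, between 4606 and 4938 in air and between 5295 and 5650 in hyperoxia, with a call under 9 of the 16 alternatives. Adar and Adarb2 were not called. Editing itself cannot be read from these values. Family genes that are not part of the receptor, Cacng6, Cnih1 and Cnih4, gave 0 calls with limma (0 also at an unadjusted p under 0.05), edgeR and DESeq2, and Cnih1 passed under 2 other alternatives. Cacng1, a muscle gene, had at most 7.93 and was below the limit for the test. With no limit it was called higher (adjusted p = 0.033, limma), with every hyperoxia library above every air value.

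For each pore subunit, the 3 genes with the most similar profile were sought among 12771 genes with a mean of at least 100. The measure is the root mean square difference of log2 values across the 6 libraries after each gene's mean is removed, so that 0 is an identical profile. The nearest to Gria1 were Inf2, a formin, at 0.0313, Plod2 at 0.0326 and Ism1 at 0.0340. Inf2 had 8013, 7716 and 7269 in air and 4430, 4385 and 6052 in hyperoxia, which repeats the higher value in hyperoxia library 3. The nearest to Gria2 were Shprh at 0.0195, Atad2b at 0.0365 and Lyst at 0.0436, all with their lowest value in hyperoxia library 2. Those of Gria3 were Ddx51 at 0.0263, Ptprk at 0.0270 and Wdr19 at 0.0279. Those of Gria4 were Prkacb, a catalytic subunit of protein kinase A, at 0.0317, Rgs17 at 0.0490 and Astn2 at 0.0515. These are descriptions over 6 libraries.

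**Figure D4:**
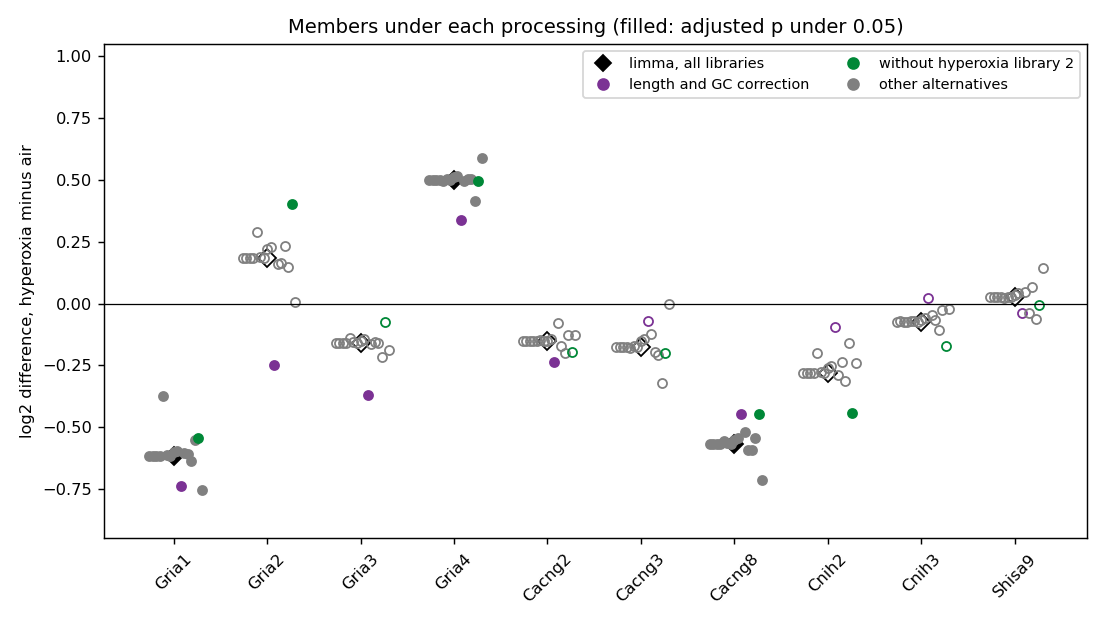
Log2 difference, hyperoxia minus air (y axis), of each member with all libraries (diamond) and under 16 alternatives (circles), filled where the adjusted p was under 0.05. All symbols are filled for Gria1, Gria4 and Cacng8, and those of Gria2 lie on both sides of 0.

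Markers of several cell types differed between the groups beside these genes. Counts of called markers, here and in the next paragraph, stand beside 14.9% called higher and 15.6% called lower of all genes tested. The summed normalized count of 8 pan-neuronal genes was 201094 to 205440 in air and 205410 to 214863 in hyperoxia, with 3 of them called higher and 3 lower. That of 6 genes of CA1 pyramidal cells was 22419 to 23186 in air and 20502 to 25974 in hyperoxia, with 2 called higher. The sum for 7 genes of dentate granule cells was 18289 to 19215 in air and 11878 to 16843 in hyperoxia, with 5 called lower. Hyperoxia library 3 was the nearest to air in this sum, as it was for Gria1, Gria4 and Cacng8. The largest part of the sum was Prox1 (5298, 5181 and 8533 in hyperoxia), which was not called. Dsp, Trpc6 and Stxbp6 were also nearest to air in library 3, whereas C1ql2 and Plk5 were nearest in library 2. Pdzd2 had a positive difference (0.14) without a call. The part of the dentate markers in the fall of Gria1 and Cacng8 was not tested. The 6 genes of CA3 pyramidal cells summed to 14135 to 15315 in air and 11968 to 15844 in hyperoxia, with 2 called lower.

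Beside the rise of Gria4, the 7 markers of GABAergic interneurons summed to 22633 to 26102 in air and 20815 to 27594 in hyperoxia, with Vip called higher and Pvalb lower. Those of oligodendrocyte precursors, cells that also make Gria4, summed to 17707 to 19925 in air and 20196 to 22292 in hyperoxia. Of these 5 genes, Pdgfra and Cspg4 were called higher, and Gpr17 (0.19), Olig1 (-0.03) and C1ql1 (-0.26) were not called. The sum of 7 markers of the neighboring thalamus was higher too, at 2833 to 3155 in air and 4347 to 5673 in hyperoxia. Most of that difference came from Slc17a6, the transporter of thalamic excitatory neurons, which had 555 to 630 in air and 1675 to 2186 in hyperoxia. Without Slc17a6 the sums of the groups overlapped. Gbx2 had at most 12.5. Slc17a6, Ramp3 and Tcf7l2 were the 3 called of 6 tested, and Prkcd had a difference of -0.21. The 6 markers of the neocortex summed to 5178 to 5650 in air and 5809 to 7891 in hyperoxia, with 2 called higher and 1 lower. The sum of 6 astrocyte markers was 152326 to 164790 in air and 189591 to 218796 in hyperoxia, and most of it was Slc1a2, with means of 104640 and 149380. Slc1a2, Aqp4 and Aldh1l1 were called higher, whereas Slc1a3 (-0.04), Gja1 (-0.09) and Gjb6 (-0.03) were not called. The sum of oligodendrocyte markers was lower (203927 to 311051 and 137130 to 168124, 6 of 6 called). Microglia markers summed to 9740 to 9766 in air and 10014 to 11190 in hyperoxia, with 1 of 6 called (Cx3cr1, 0.42). Of those not called, P2ry12 (0.03), Tmem119 (0.06) and Csf1r (0.16) had positive differences, and C1qa (-0.32) and Aif1 (-0.39) negative ones. Markers of endothelial cells summed to 5273 to 5647 in air and 6540 to 7622 in hyperoxia (3 of 5 called). No marker that was found by name was at 0 in any library. Pvrl3, listed for CA3 pyramidal cells, was not found. The part of these lists in the differences of the AMPA receptor genes was not tested.

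**Figure D5:**
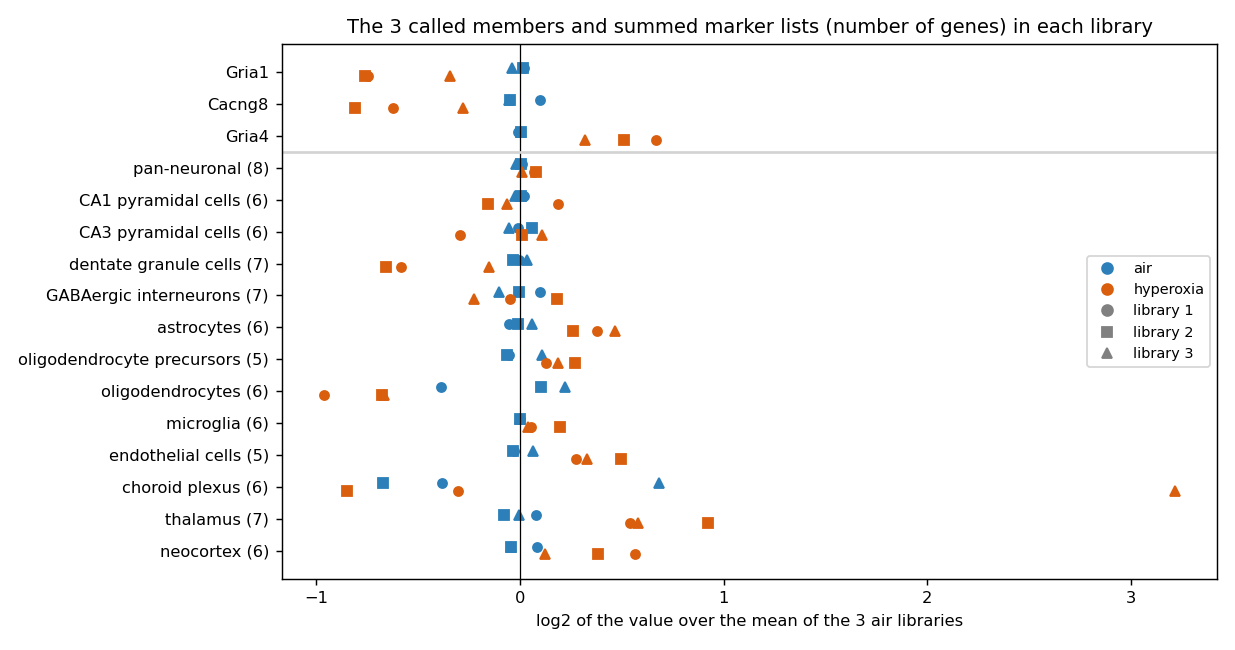
Log2 of each library's value over the mean of the 3 air libraries (x axis) for the 3 called members and for summed marker lists, with the number of genes in parentheses. The dentate granule list was lower in all 3 hyperoxia libraries, as Gria1 and Cacng8 were, and the choroid plexus list was highest in hyperoxia library 3.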

How the data were processed

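Transcriptomes of the left hippocampus were compared between 3 air and 3 hyperoxia libraries, made strand-specific from polyA RNA and read as paired ends. The deposited signal is a read count divided by the authors with 1 size factor per library. Their processing notes name FastQC, STAR 2.5.3a, HTSeq and DESeq2. The strand setting, the annotation and the genome build were not given in the sources used here. A deposited table of the authors' own fold changes and p-values was not used. Its name carries the word Oil, whose meaning is not given. In every library 100% of the values were whole multiples of 1 read within 0.01, so reads were recovered for edgeR and DESeq2. Replicate libraries differed by more than sampling noise (chi-square per gene 6.54 to 47.2). P-values measure the spread between 3 animals per group.

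Genes with a mean value of at least 10 (17778) were tested with limma 3.58.1 in R 4.3.3. The response was log2 of the value plus 1, and the variance prior followed the mean. This scale understates the change of low genes. Benjamini-Hochberg adjustment ran over all genes tested, with a threshold of 0.05. Shares per kilobase were compared with exact two-sided permutation tests. Alternatives changed the pseudocount (0.5 or 5), the minimum mean (none or 50), the scaling (TMM or quantile normalization), limma's trend (left out) or the test (edgeR 4.0.16 quasi-likelihood or DESeq2 1.42.0). Others took out a smooth term for GC content and length (mgcv 1.9.3), left out 1 library at a time or, for shares, used plain values. The longest coding transcript as the length was added after the data were seen. The code was tested on simulated data. Positions and lengths are from GENCODE M21 (GRCm38), which holds 99.7% of the table's genes, and promoters are from RefSeq. The named genes are the members, called or largest-changing genes of the lists, and the 3 most similar genes per pore subunit. Members and lists were chosen with earlier results of these data known. Python 3.11.15 was used with scipy 1.17.1, numpy 2.4.6 and pandas 2.3.3.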

Additional observations from a re-analysis of the deposited data

How the results depend on the processing

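Gria1, Gria4 and Cacng8 kept their direction and their call under all 16 alternatives. The length and GC correction reversed Gria2 to -0.25, Cnih3 to 0.023 and Shisa9 to -0.0392, and raised the count of members called lower to 5 by adding Gria2, Gria3 and Cacng2. When 1 library was left out, differences ranged from 0.01 to 0.40 for Gria2, from -0.32 to -0.0037 for Cacng3, from -0.44 to -0.16 for Cnih2 and from -0.06 to 0.14 for Shisa9. The value of Shisa9 was -0.0388 without air library 2, -0.0609 without hyperoxia library 1 and -0.0079 without hyperoxia library 2. Without hyperoxia library 2, 2 members were called higher (Gria2 and Gria4), against 1 otherwise, and 3 lower (Gria1, Cacng8 and Cnih2).

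Of the 43 related genes, 10 were called higher and 17 lower. Limma without the trend called 5 higher. With 1 library left out, 5 to 12 were called higher and 10 to 19 lower. Those called higher were 5 without air library 2, air library 3 or hyperoxia library 1, and 6 without air library 1. Leaving out air library 1 or 2 gave 10 called lower, and leaving out hyperoxia library 1 gave 11. In these 4 fits the count over all genes was 3056 to 3672, against 5425 with every library. The cause of these changes was not tested. The Cacng3 share moved by 2.14 percentage points, by -0.63 without hyperoxia library 1 and by up to 5.06 without another library. No pairing of air and hyperoxia animals is given, so no paired analysis was run. The labels number the animals 1 to 6 across both groups, and the columns carry other numbers. At this depth only genes of a few reads, such as Cacng1 and Prrt2, were limited by counting.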
